A study of Mus musculus with 40 samples.

Results

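The 9 genes Ptprc, Itga2b, Itgam, Cd34, Cd44, Coro1a, Itgal, Laptm5 and Csf1r encode surface proteins and membrane-associated proteins of blood cells, and the DNA around them was examined here in a screen for enhancers. A fragment was counted at a locus when its centre lay in the RefSeq gene body (mouse genome build mm10, GRCm38) or within 25 kb of it. This gave 557 of the 458486 fragment entries of the screen, 455 different fragments, which merged into 57 of 75060 regions of overlapping fragments.

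The products of these genes are found on or in blood cells, and some of them also on other cells. CD41, the product of Itga2b, is an integrin chain of platelets and megakaryocytes that also appears on the first blood progenitors as they leave the hemogenic endothelium, the endothelium that gives rise to blood. CD34 is a sialomucin of blood progenitors and endothelium, and CD44 is a receptor for hyaluronan found on many cell types. CD45, the tyrosine phosphatase encoded by Ptprc, is carried by nearly all white blood cells and their progenitors. CD11b (Itgam) and CD11a (Itgal) are integrin alpha chains of leukocytes, CSF1R is the receptor of macrophage colony-stimulating factor, coronin 1A (Coro1a) is an actin-binding protein of leukocytes, and LAPTM5 is a lysosomal membrane protein of blood cells. An enhancer is a stretch of DNA that raises transcription from a promoter, often at a distance.

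In the screen, DNA cut from open chromatin by the Tn5 transposase was cloned in front of a minimal HSP68 promoter and a Venus-YFP reporter. The constructs were placed, 1 per cell, at the Hprt locus of HM-1 mouse embryonic stem cells, a line of strain 129/ola in which integration repairs a non-functional Hprt gene. Cells were differentiated in serum and sorted at 5 stages, namely embryonic stem cells (ES), FLK1+ hemangioblast cells (HB), KIT+ TIE2+ CD41- hemogenic endothelium (HE1), KIT+ TIE2+ CD41+ hemogenic endothelium (HE2) and KIT+ TIE2- CD41+ blood progenitors (HP). Each stage was then divided by YFP into Negative, Low, Medium and High libraries in 2 replicates, which gave 40 libraries in 20 groups of 2. All groups thus share the Hprt insertion, and the Negative gate was set with a line whose reporter had the minimal promoter and no fragment.

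Fragments from the Low, Medium and High libraries are called positive, and the 4 libraries of 1 stage and replicate are called a sort. A fragment was counted once per sort as positive and once as negative, which gave 415 positive and 133 negative fragments at the 9 loci. The lists hold positions without read counts, so each count below is a number of different fragments recovered and not a reporter level. CD41, the product of Itga2b, was itself used to sort HE1, HE2 and HP, and the native Itga2b gene of these cells is a separate copy from the fragments tested at Hprt. Gene expression was not part of these lists, so the stage identity of the sorted cells was not checked against marker genes.

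Several libraries stood apart. The libraries held 654 to 51146 fragments. Replicate 1 supplied 90.3% of the entries at the 9 loci, against 78.8% in the whole screen. The Negative and Medium libraries of HE1 in replicate 1 shared 28868 identical fragments, which was 69.8% of the Negative library. No other pair of libraries of 1 sort in replicate 1 shared more than 5.90% of the smaller library, and pairs in replicate 2 shared 4.36% to 47.9%. The 4 libraries of HP in replicate 1 shared 0 fragments in all 6 pairs. At the 9 loci the Negative library of HE1 in replicate 1 held 57 fragments, of which 39 were identical to a fragment of the Medium library. The positive shares, the overlap of negative with positive fragments and several odds ratios are therefore also given without this sort. Levels per stage, counts per gate and the sharing of fragments between libraries include it.

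The following sequences show 300 bases around the position covered by most fragments in 1 region each of 6 loci. They are the regions with most positive fragments at Itga2b, Coro1a, Laptm5, Cd34 and Ptprc, where most results lie, and at Cd44, where 1 fragment recurred at every stage. All are on the plus strand of GRCm38, as given by RefSeq, and capitals mark matches to 6 consensus words named below.
Itga2b region, chr11:102455995-102456294: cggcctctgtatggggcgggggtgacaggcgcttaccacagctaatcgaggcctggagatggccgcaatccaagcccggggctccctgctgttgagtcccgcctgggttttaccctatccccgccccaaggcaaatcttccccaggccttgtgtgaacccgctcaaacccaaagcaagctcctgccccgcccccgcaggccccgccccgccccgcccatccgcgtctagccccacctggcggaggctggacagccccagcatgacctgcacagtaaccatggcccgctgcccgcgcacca
Coro1a region, chr7:126701128-126701427: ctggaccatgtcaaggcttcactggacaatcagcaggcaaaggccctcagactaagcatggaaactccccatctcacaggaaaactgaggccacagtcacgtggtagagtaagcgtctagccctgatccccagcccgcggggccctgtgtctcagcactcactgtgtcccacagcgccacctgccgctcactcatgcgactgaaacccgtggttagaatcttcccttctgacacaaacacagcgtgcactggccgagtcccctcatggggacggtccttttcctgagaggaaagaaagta
Laptm5 region, chr4:130890281-130890580: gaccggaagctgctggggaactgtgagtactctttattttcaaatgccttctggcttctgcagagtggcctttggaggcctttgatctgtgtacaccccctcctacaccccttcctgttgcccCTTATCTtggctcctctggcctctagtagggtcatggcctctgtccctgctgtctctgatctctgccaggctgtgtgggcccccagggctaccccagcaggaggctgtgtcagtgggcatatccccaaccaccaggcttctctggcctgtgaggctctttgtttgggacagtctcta
Cd34 region, chr1:194927950-194928249: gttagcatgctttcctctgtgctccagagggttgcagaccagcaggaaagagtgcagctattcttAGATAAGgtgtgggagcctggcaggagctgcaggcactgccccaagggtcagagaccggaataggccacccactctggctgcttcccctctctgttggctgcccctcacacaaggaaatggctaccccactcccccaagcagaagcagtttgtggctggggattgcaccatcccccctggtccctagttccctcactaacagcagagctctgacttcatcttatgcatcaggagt
Ptprc region, chr1:138039240-138039539: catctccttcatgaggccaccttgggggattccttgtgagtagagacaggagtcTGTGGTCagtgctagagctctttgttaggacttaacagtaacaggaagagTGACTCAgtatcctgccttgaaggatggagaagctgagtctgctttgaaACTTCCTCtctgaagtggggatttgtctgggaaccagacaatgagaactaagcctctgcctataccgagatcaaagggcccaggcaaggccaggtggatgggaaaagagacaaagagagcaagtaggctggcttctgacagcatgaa
Cd44 region, chr2:102921578-102921877: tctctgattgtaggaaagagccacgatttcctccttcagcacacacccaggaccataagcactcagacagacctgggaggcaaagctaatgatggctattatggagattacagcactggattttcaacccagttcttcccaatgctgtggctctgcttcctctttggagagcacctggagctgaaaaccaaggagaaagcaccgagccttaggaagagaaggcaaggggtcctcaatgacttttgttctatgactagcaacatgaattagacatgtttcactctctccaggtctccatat

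The words searched on both strands were TGTGGTC or TGTGGTT for RUNX factors, GAGGAAGT for PU.1, AGATAAG for GATA factors, TGACTCA (and so its reverse complement) for AP-1, GGAATGC or GGAATGT for TEAD factors and CAGCTG for an E-box. No 2 of these words overlapped in the windows shown. The Ptprc window held a RUNX word, a PU.1 word and an AP-1 word. The Cd34 and Laptm5 windows each held 1 GATA word. The windows at Itga2b, Coro1a and Cd44 held none of the 6, which says only that these letters are not in these bases. The window at Itga2b had a GC content of 68.0% and that at Ptprc 49.7%.

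Over all 57 regions, 9 windows of 300 bases held a RUNX word (15.8%, against 13.0% of all 75043 windows of the screen) and 16 held an E-box (28.1% against 19.9%). A GATA word was found in 7 windows (12.3% against 5.96%) and a PU.1 word in 5 (8.77% against 3.67%). An AP-1 word was found in 2 (3.51% against 10.1%) and a TEAD word in 3 (5.26% against 9.77%). These shares are a description of few regions. Of the 57 windows, 25 held none of the words.

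The loci differed widely in how many fragments they gave. The Itga2b locus (chr11:102453297-102469883 for the gene body, minus strand) held 263 of the 557 entries, or 47.2%. This was more than at 99.2% of the 21000 protein-coding gene loci taken in the same way, whose median was 10. Laptm5 (chr4:130912890-130936148, plus strand) followed with 88 entries and Csf1r (chr18:61105572-61131139, plus strand) with 55. Coro1a (chr7:126699774-126704816, minus strand) held 37, Cd34 (chr1:194938821-194961292, plus strand) held 35 and Cd44 (chr2:102811141-102901669, minus strand) held 28. Ptprc (chr1:138062859-138175756, minus strand) and Itgal (chr7:127296139-127335137, plus strand) held 24 each. Itgam (chr7:128062640-128118491, plus strand) held 3, which was more than at 32.9% of protein-coding loci. The loci differ in length from 55.0 kb at Coro1a to 162.9 kb at Ptprc, and per 100 kb Itga2b held 395 entries, Laptm5 held 120 and Ptprc 14.7.

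Of the 57 regions, 44 held a positive fragment, against 63070 of the 75060 regions of the screen, and 13 were seen only in Negative libraries. The centre of coverage lay in an intron in 31, in an exon in 4 and between genes in 22. In none did it lie within 1500 bp of an annotated transcription start. The study's methods set fragments that close to a start apart as promoter fragments. The 0 may come from that split and says nothing about promoter activity at these loci. The nearest annotated start was that of a member gene for 35 regions, so 22 regions lay nearer to a start of another gene. Of the 57, 31 held 1 entry (54.4%, against 55.0% of all regions). The 11 regions named here held 78.1% of the entries.

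**Figure D1:**
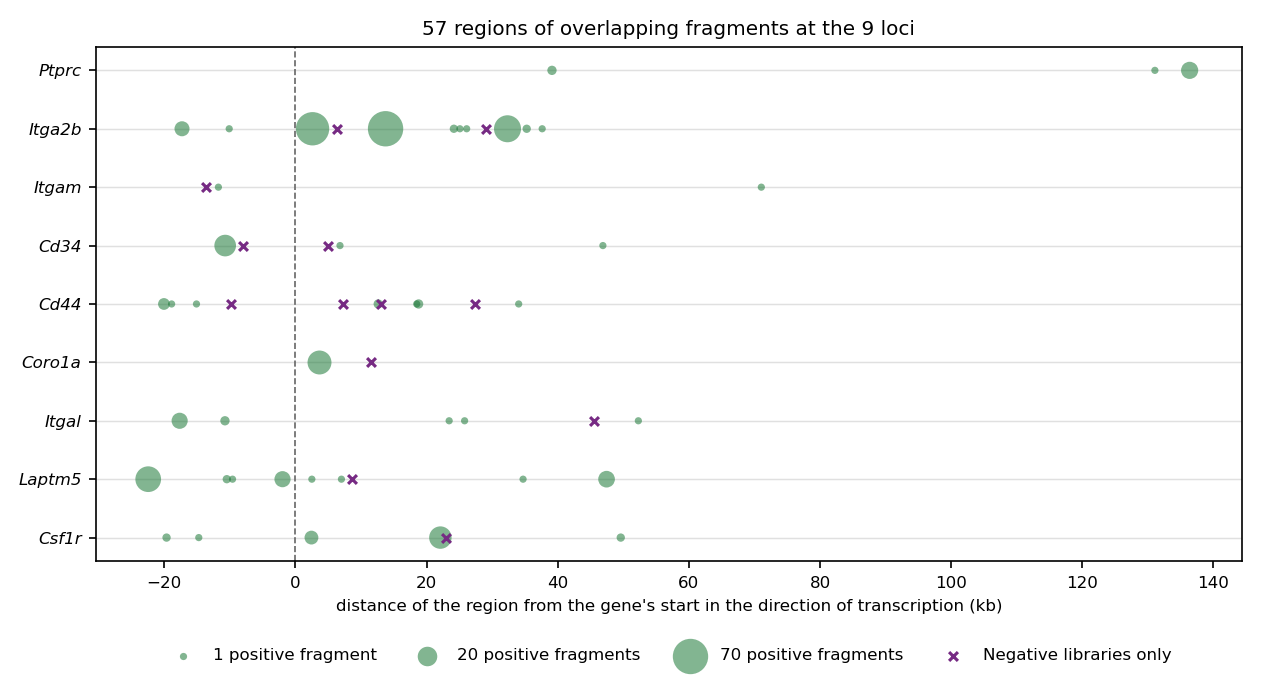
Each mark is 1 of the 57 regions, placed by the distance of its most covered position from the start of the member gene (x axis, kb, positive in the direction of transcription) in 1 row per gene. The area of a filled circle grows with the number of positive fragments, and crosses are regions seen only in Negative libraries. The largest circles lie at Itga2b, whose 3 main regions held 234 fragments, and the Ptprc circle farthest to the right lies 136366 bp from the Ptprc start, beyond the end of the gene.

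At Itga2b, 3 regions held 234 of 260 fragments. The region chr11:102455659-102456499 lies 13738 bp inside the gene, centred on an intron and reaching into neighbouring coding exons, and held 70 positive and 18 negative fragments. The nearest annotated start is that of Fam171a2. Replicate 1 gave 8, 14, 19, 14 and 12 positive fragments from ES to HP, and replicate 2 gave 1 at HB and 2 at HE1. The region was thus positive at all 5 stages in replicate 1.

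The region chr11:102466577-102467896 lies 2602 bp inside the gene, centred on an intron, with 62 positive and 30 negative fragments. Its positive fragments in replicate 1 numbered 5, 10, 26, 9 and 10 from ES to HP, and its negative fragments 9, 5, 10, 3 and 2 in the same order. ES was the stage in replicate 1 at which this region had more negative than positive fragments. The third region, chr11:102437041-102438768, is centred on an exon of the neighbouring gene Fam171a2, lies nearest to the start of Grn and held 40 positive and 14 negative fragments. These were the 3 regions of the 57 with positive fragments in both replicates at a same stage, namely HB and HE1 for the first, HB and HE2 for the second, and ES and HE1 for the third.

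Each of the other loci is described by a region that no other of its regions exceeded in positive fragments. At Coro1a, the region chr7:126700773-126701658, centred on an intron 3538 bp inside the gene and reaching into a coding exon, held all 31 positive fragments of the locus. Replicate 1 gave 7, 8, 6, 8 and 2 of them from ES to HP. At Cd34, the region chr1:194927687-194928289 lies upstream, at -10721 bp from the start and held 25 of 27 positive fragments, with 14 at HE1, 6 at HE2 and 5 at HP and none at ES or HB, all in replicate 1.

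At Laptm5, the region chr4:130889921-130890783 lies upstream, at -22459 bp from the start and held 36 positive fragments, with 0, 7, 13, 11 and 5 from ES to HP in replicate 1. At Csf1r, the region chr18:61127362-61127880 is centred on an intron 22096 bp inside the gene and held 27 positive fragments, with 0, 8, 5, 6 and 8 from ES to HP in replicate 1. Both regions were without a positive fragment in replicate 2. Both loci also had smaller regions that are not among those named. That 47441 bp from the Laptm5 start held 14 positive and 0 negative fragments, with 1, 2, 2, 5 and 4 positive from ES to HP in replicate 1. That at -1979 bp from the Laptm5 start held 13 positive and 6 negative fragments. At Csf1r, that 2434 bp inside the gene held 9 positive and 3 negative fragments.

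At Ptprc, the region chr1:138039165-138039641 lies between genes, past the end of Ptprc and nearest to the start of the microRNA gene Mir181b-1, and held 15 positive fragments, with 0, 3, 6, 4 and 2 from ES to HP in replicate 1. At Itgal, the region chr7:127278243-127278766 lies upstream, at -17666 bp from the start, nearest to the start of Sephs2, and held 13 positive fragments, with 1, 3, 6, 3 and 0 in the same order. At Itgam, the region named is chr7:128050832-128050935, a single positive fragment at HE2 in replicate 1.

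At Cd44, the leading region chr2:102921648-102921806 lies upstream, at -20059 bp from the start and held 6 positive and 4 negative fragments, all in replicate 2. It consisted of 2 fragments that differ by 1 bp in length, and the fragment of 159 bp was found in 12 libraries of replicate 2 over all 5 stages, 8 positive and 4 Negative. No other fragment at the 9 loci was found in more than 6 libraries. Without this fragment the Cd44 locus held 11 positive and 5 negative fragments, in place of 16 and 9.

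**Figure D2:**
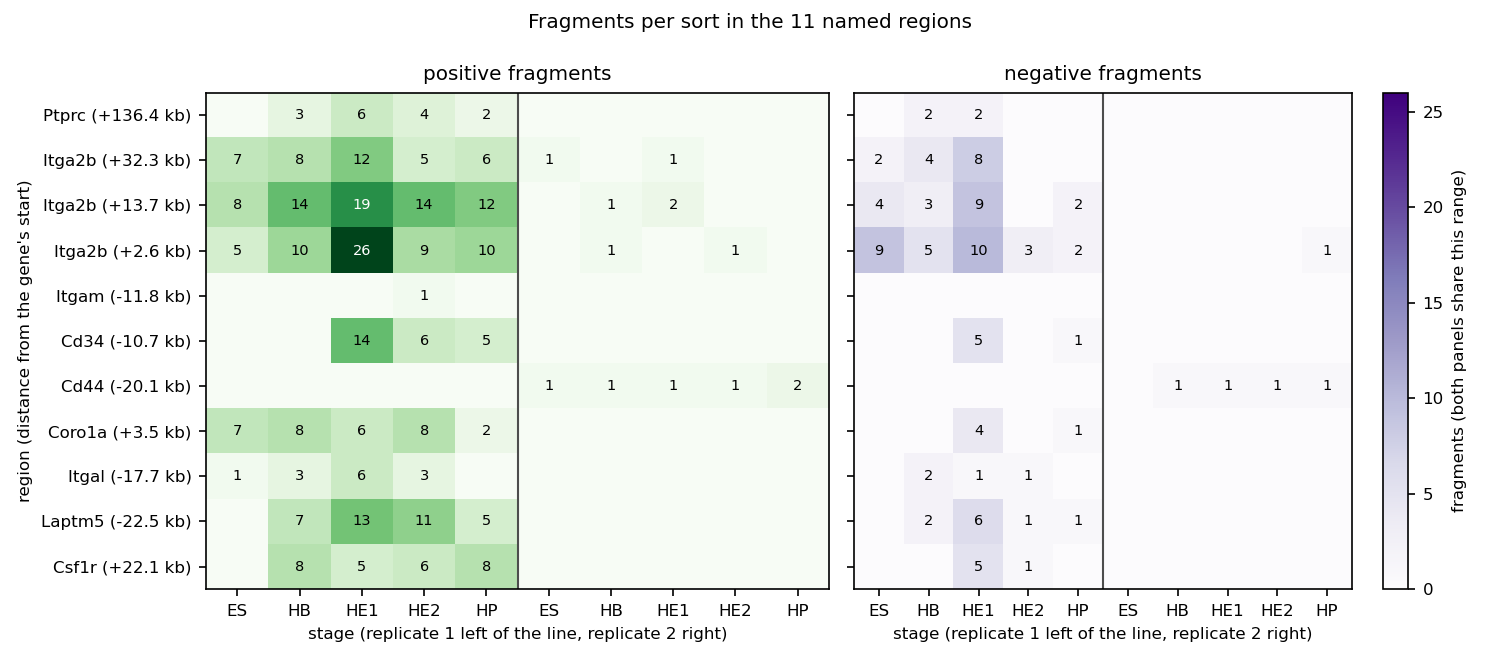
Rows are the 11 named regions with their distance from the start of the member gene (kb), columns are the 5 stages in replicate 1 and then replicate 2, and each cell gives the number of positive (left) or negative (right) fragments of that sort, with darker cells for higher counts and empty cells for 0. The highest count is 26, at the Itga2b region 2602 bp inside the gene at HE1 of replicate 1, and in replicate 2 the Cd44 region is the one with positive fragments at all 5 stages.

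Negative fragments lay mostly on the same DNA as positive ones. Of the 133 negative fragments at the 9 loci, 112 (84.2%) overlapped a positive fragment of the same sort, against 75.2% in the whole screen, and 49 (36.8%) were identical to one, against 36.3%. Without HE1 of replicate 1 the shares were 73.7% and 11.8% of 76 negative fragments, against 59.9% and 12.9% in the whole screen. Of the 49 identical fragments, 40 came from HE1 of replicate 1.

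Whether the regions drove YFP above the Negative gate more often than other DNA was examined by comparing the share of positive among all fragments with that of the sort. At the 9 loci 75.7% of the fragments were positive, against 76.8% in the whole screen. Without HE1 of replicate 1 the shares were 79.3% and 79.4%. With the 10 sorts as strata (Cochran-Mantel-Haenszel test with Benjamini-Hochberg adjustment over 9382 gene loci with at least 20 fragments), 0 of the 8 members that could be tested passed the threshold, and 0.0746% of all loci tested did. Itgam, with 3 fragments, was below the minimum. No member had an unadjusted p under 0.05, against 314 of all loci, and their adjusted p was 1.0 in each case.

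Observed positive fragments divided by those expected had a median of 1.00 over the 8 members and 1.00 over all loci tested, and 4 of the 8 members were above 1, against 51.1% of all loci. Itga2b had 191 positive fragments against 200.5 expected, an odds ratio of 0.81 (95% interval 0.61 to 1.08). Coro1a had 31 against 28.6, an odds ratio of 1.60 (0.63 to 4.09). Laptm5 had an odds ratio of 0.93 (0.55 to 1.58) and Csf1r 1.18 (0.55 to 2.56). The odds ratio of Cd34 was 1.11 (0.48 to 2.55), that of Cd44 0.84 (0.35 to 2.03), that of Ptprc 0.92 (0.34 to 2.50) and that of Itgal 1.11 (0.39 to 3.13). All 8 intervals included 1, and they cover counting error only, since PCR copies and neighbouring fragments of 1 region are not independent molecules. At Ptprc and Itgal, with 24 fragments each, differences within these intervals were not detectable at this depth.

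Without HE1 of replicate 1, the odds ratio of Coro1a was 4.21 (0.78 to 22.8) with 25 positive and 2 negative fragments, and that of Csf1r was 2.76 (0.78 to 9.80) with 34 and 5. The odds ratio of Itga2b was then 0.78 (0.54 to 1.13) and that of Laptm5 0.91 (0.46 to 1.82). Ptprc, Cd34, Cd44 and Itgal fell below 20 fragments without that sort. With fragments found as both positive and negative of a sort left out, observed over expected was 1.12 at the Coro1a region and 1.09 at the Csf1r region. With all fragments it was 1.09 and 1.02, and without HE1 of replicate 1 it was 1.18 and 1.13. Whether the identical fragments account for these shifts was not tested.

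Among regions the same test was run over 5530 with at least 20 fragments. It called 0 of the 7 member regions tested, against 0.181% of all regions, and all 10 of the calls elsewhere were lower in positive fragments. One member region, that of Itga2b 2602 bp inside the gene, had an unadjusted p of 0.049 (adjusted p = 1.0 by the Benjamini-Hochberg method), against 191 of all regions under 0.05. It held 62 positive fragments against 70.3 expected, an odds ratio of 0.63 (0.40 to 0.98), and 0.43 (0.24 to 0.76) without HE1 of replicate 1, where it was also not called. Observed over expected, 0.88 with all sorts, was 0.95 without ES of replicate 1 (unadjusted p = 0.47) and 0.90 with near-identical fragments collapsed (unadjusted p = 0.12), and ranged from 0.81 to 0.95 when 1 sort or replicate was left out. The other 6 odds ratios ran from 0.83 to 1.71, with intervals that included 1. Without HE1 of replicate 1 that of the Coro1a region moved from 1.71 to 5.53 (0.76 to 40.2) and that of the Csf1r region from 1.11 to 3.92 (0.55 to 28.0). That of the Itga2b region at Fam171a2 moved from 0.83 to 1.10 (0.45 to 2.69), across 1.

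**Figure D3:**
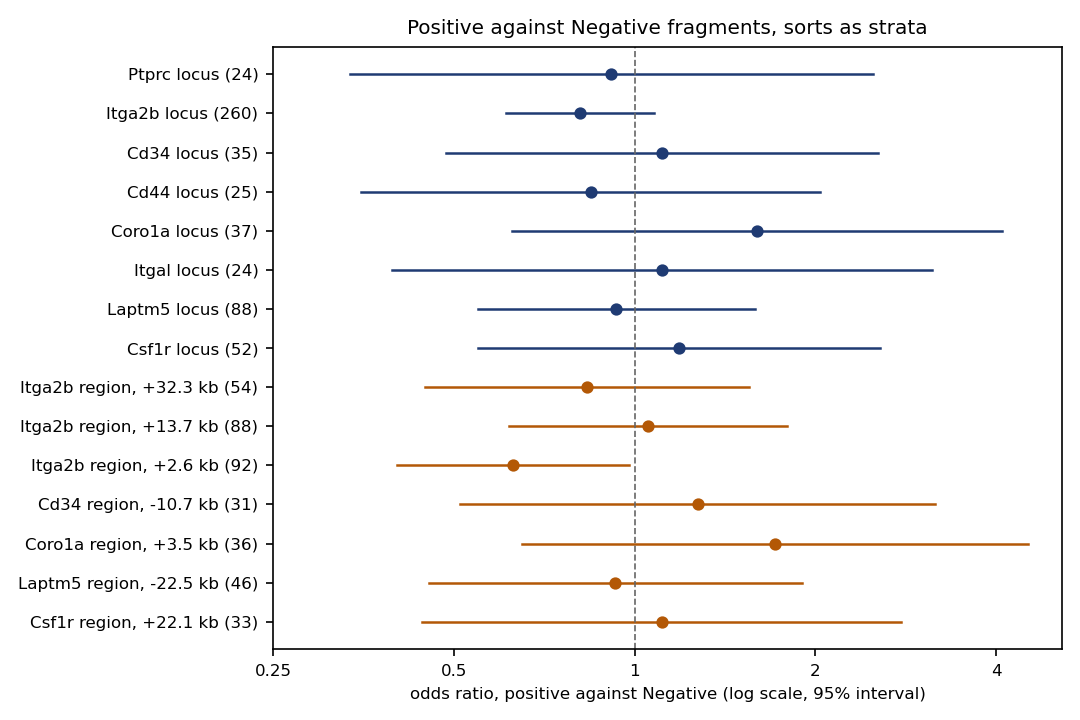
Points are Mantel-Haenszel odds ratios of positive against Negative fragments with the 10 sorts as strata (x axis, log scale), for the 8 loci (blue) and 7 regions (orange) with at least 20 fragments, and bars are 95% intervals. Numbers in brackets are fragments, and the dashed line is 1, which lies within 14 of the 15 intervals, the exception being the Itga2b region 2602 bp inside the gene.

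Levels along the differentiation were taken as fragments at a locus per 10000 fragments of the sort. The study's methods describe a filter for chromatin open at the matching stage, and whether it applies to these lists is not stated. A low level or a 0 at a stage therefore cannot be told apart from an effect of such a filter. Positive fragments at Itga2b stood at 8.66, 8.73, 5.98, 4.38 and 7.31 per 10000 from ES to HP in replicate 1. In replicate 2 they stood at 3.33, 3.28, 1.44, 2.88 and 0 in the same order. Replicate 1 was above replicate 2 at every stage, and the stages overlapped within their spread, with 5.99 ± 3.77 at ES and 3.66 ± 5.17 at HP (SD, n = 2).

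Negative fragments at Itga2b stood at 16.4, 14.2, 7.01, 3.56 and 4.73 per 10000 from ES to HP in replicate 1, and at 0, 3.27, 0, 0 and 2.01 in replicate 2. In replicate 1 the negative level at ES (95% Wilson interval 10.3 to 26.3) was above the positive level (5.82 to 12.9), and the intervals overlapped.

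Laptm5 and Csf1r had few positive fragments at ES. Laptm5 stood at 0.36, 2.31, 1.86, 3.51 and 3.28 per 10000 from ES to HP in replicate 1, and at 1.11, 1.64, 0, 0 and 0 in replicate 2. Csf1r stood at 0, 2.05, 0.69, 1.75 and 2.77 in replicate 1 and at 1.11, 1.64, 0, 0 and 0 in replicate 2. In replicate 1 ES was the lowest stage for both genes, and in replicate 2 it was not. In replicate 2 both genes had positive fragments at ES and HB and at no later stage, with 1 fragment each at ES and 2 each at HB. A count of 0 in replicate 2 allowed up to 0.86 per 10000 at HE1, 8.64 at HE2 and 5.76 at HP. The limits at HE2 and HP lay above every level of these genes in replicate 1, so a loss at those stages was not detectable. At HE1 the Csf1r level of replicate 1 lay under the limit and that of Laptm5 lay above it. The Wilson intervals of Laptm5 at HE1, 1.19 to 2.91 in replicate 1 and 0 to 1.10 in replicate 2, did not overlap. The cause of this difference between replicates was not tested.

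Cd34 and Ptprc had no positive fragment at ES in either replicate. Cd34 stood at 0, 0, 1.47, 0.88 and 1.51 per 10000 from ES to HP in replicate 1, and Ptprc at 0, 0.77, 0.59, 1.02 and 0.76, and both were at 0 in all 5 sorts of replicate 2. A count of 0 allowed up to 1.08 per 10000 at ES of replicate 1 and 3.33 at ES of replicate 2. The levels of Ptprc at later stages lay under those limits, so a difference from ES was not detectable. The 6 positive fragments of Cd34 at HP all came from the Medium library of replicate 1, and their Wilson interval (0.69 to 3.30 per 10000) overlapped that of 0 fragments at ES of replicate 1 (0 to 1.39).

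Coro1a ran the other way, with 2.53, 2.05, 0.59, 1.17 and 0.50 per 10000 positive fragments from ES to HP in replicate 1 and 0 in all 5 sorts of replicate 2. Its Wilson interval at ES (1.22 to 5.21) overlapped that at HP (0.14 to 1.84). Coro1a and Itga2b were the 2 members with more than 2 positive fragments at ES.

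**Figure D4:**
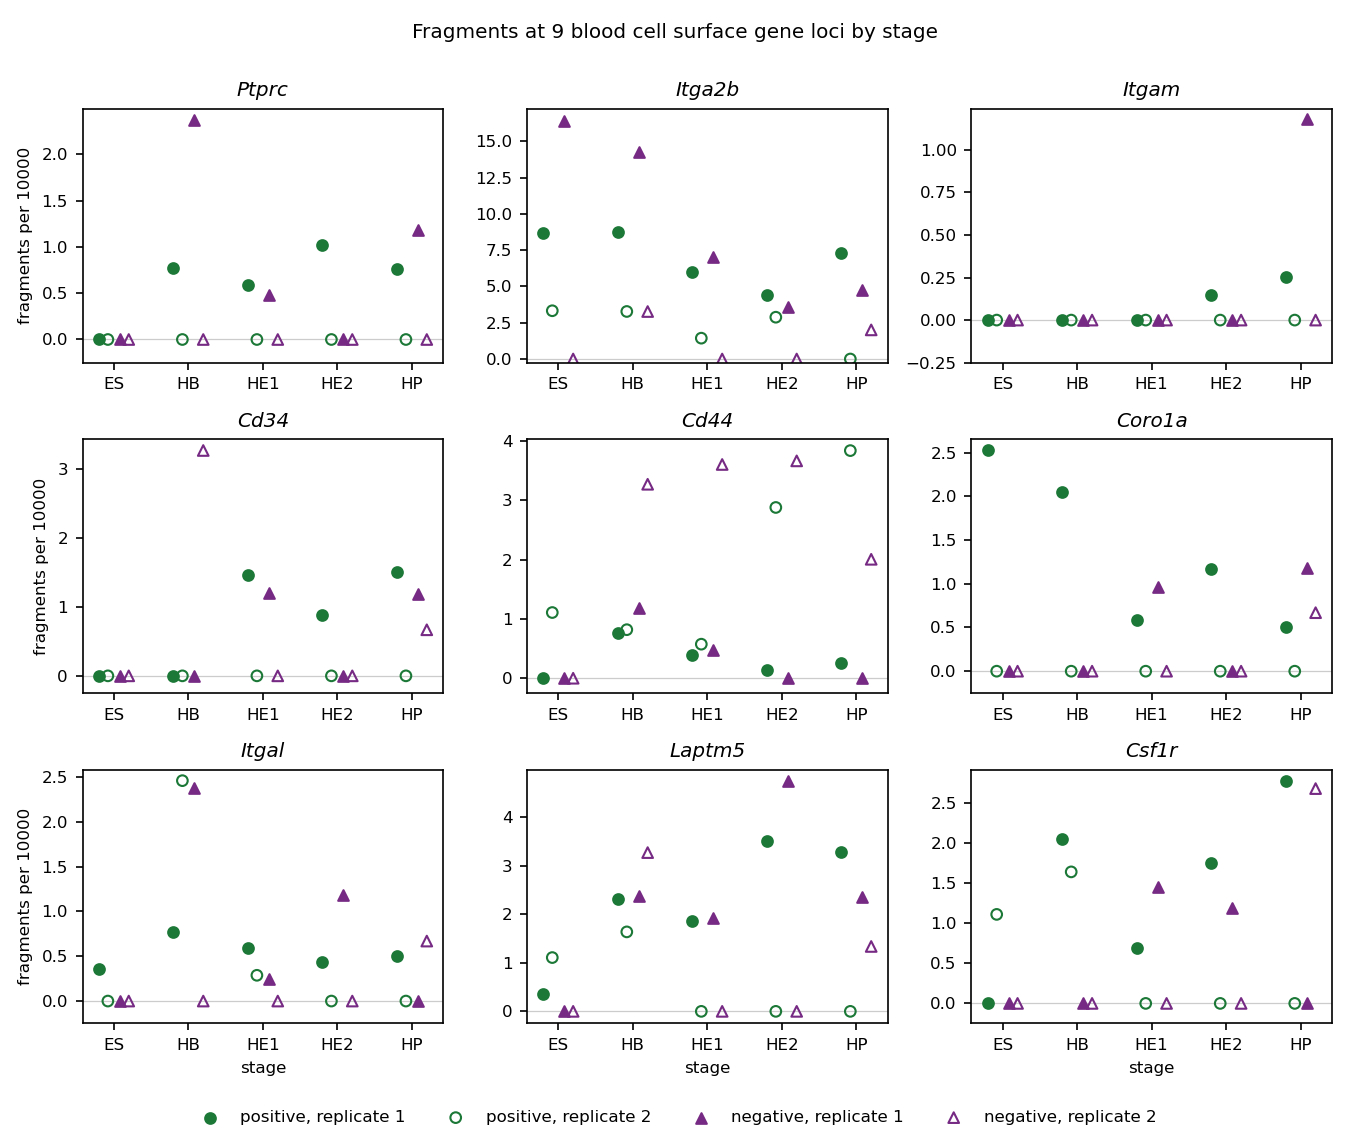
Each panel is 1 of the 9 loci, with stage on the x axis and fragments at the locus per 10000 fragments of the sort on the y axis, whose range differs between panels. Green circles are positive and purple triangles negative fragments, filled for replicate 1 and open for replicate 2, without error bars. At Itga2b the filled circles, from 4.38 to 8.73, lie above the open ones at every stage, and at Ptprc and Coro1a all open circles lie at 0.

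Change from ES to HP was tested across all 9382 loci with limma on log2(fragments per 10000 + 1), with 2 sorts per group. In positive fragments 0 of 8 members passed the threshold and 0% of all loci did (adjusted p = 1.0 by limma for each member), and 0 members had an unadjusted p under 0.05, against 81 of all loci (352 with the replicate as a block, again with 0 members). The fitted difference of HP minus ES was above 0 for 6 of 8 members, against 47.7% of all loci, with a median of 0.35 against -0.03 on this log2 scale. Negative fragments, given below, cannot serve as a comparison, as most members had none at ES. Neither Cd34 nor Ptprc had a positive fragment at ES. For a bounded median, Ptprc was set to 0, as its HP level lay under the limit for 0 fragments at ES. Cd34 was set to its bound, the log2 of 1.64, from summed replicates without the added 1 and so not on the fitted scale. The median was then 0.18. The lowest fitted difference was that of Itga2b at -1.17 ± 1.26 (SE) and the highest that of Cd44 at 0.76 ± 0.91, and that of Coro1a was -0.61 ± 0.75. With near-identical fragments collapsed, Cd44, which has 2 fragments that differ by 1 bp at HP of replicate 2, was at 0.43 and Cd34, at 0.67, was the highest. None of these differences was larger than the spread between replicates by this test, in which that spread includes the offset between replicates.

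In negative fragments limma called 0 of 8 members and 0% of all loci (lowest adjusted p 0.97, with 0 members and 295 loci at an unadjusted p under 0.05). With the replicate as a block 898 loci had an unadjusted p under 0.05, among them 1 member, Laptm5 (limma unadjusted p = 0.049, adjusted p = 0.52). The fitted difference of HP minus ES was above 0 for 7 of 8 members, against 57.1% of all loci, with a median of 0.86 against 0.16. Itga2b was the one member with negative fragments at ES, so the others could not fall. This count therefore cannot be compared with that of positive fragments. No fold against ES can be given for these others, which had 1 to 4 negative fragments at HP. For the difference between the changes in positive and negative fragments limma called 0 members and 0% of all loci (adjusted p = 1.0), with 0 members and 127 loci at an unadjusted p under 0.05, and its sign is not given because 7 of the 8 members had no negative fragment at ES from which to fall. The F test over the 5 stages in positive fragments called 0 members and 0% of all loci, with 0 members and 5 loci at an unadjusted p under 0.05.

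Each reporter level was present at the larger loci. Itga2b had 43 entries in Low, 84 in Medium and 67 in High libraries, Laptm5 had 13, 33 and 23, and Csf1r had 12, 16 and 16. Coro1a had 4, 13 and 14, and Cd34 had 8, 16 and 3. These counts follow the sizes of the libraries as well as the loci and were not tested. Over the 9 loci 36.4% of the entries of replicate 1 were in Medium libraries, against 32.9% in the whole screen, and 26.2% were in High libraries, against 27.9%. In replicate 2 both differences had the other sign, with 7.41% against 13.5% in Medium and 22.2% against 14.7% in High libraries. Positive fragments had median lengths of 99.0 bp at Ptprc, 126 bp at Cd34, 197 bp at Itga2b and 205 bp at Coro1a, with negative medians of 135, 120.5, 223 and 211.5 bp.

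Agreement between replicates was low at single fragments. Of the 455 different fragments, 3 (0.66%) were found in both replicates, against 0.96% in the whole screen. In more than 1 library 77 were found (16.9%, against 19.0%). At the level of regions, 7 of 57 (12.3%) held fragments of both replicates, against 9.28% of all regions, and 25 were seen only in each replicate. Of the 44 regions with a positive fragment, 4 (9.09%) were positive in both replicates, against 8.14% of all regions with one.

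A further 25 genes of the blood cell surface and of leukocyte signalling were taken as a background list. Of these 4 (Itga4, Cd48, Cd93 and Gp1ba) had no fragment and 13 had at least 20. For these 13 the observed over expected positive fragments had a median of 1.01, and 0 passed the threshold. The highest was 1.13 at Cd33, a sialic acid-binding lectin of myeloid cells. Cd33 had 76 positive fragments against 67.5 expected (Cochran-Mantel-Haenszel unadjusted p = 0.032, adjusted p = 1.0). Its fitted difference of HP minus ES in positive fragments was 2.88 ± 0.91 (SE, limma unadjusted p = 0.0048, adjusted p = 1.0). Cd33 was named here after its values were seen.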

How the data were processed

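Fragments cloned before a YFP reporter and recovered from sorted mouse cells were sequenced as read pairs after PCR without molecular identifiers, so intervals cover counting error only. The deposited lists give chromosome, start and end of each fragment in mm10, which were counted here as positions (no score, read count or depth). Per the study's methods the authors trimmed reads with Trim Galore, aligned them with Bowtie2, kept proper pairs with a high mapping quality and reduced repeated fragments to 1. Filters against a background library and for open chromatin, the latter including an ATAC peak of the matching stage, are also described. So is a split of promoter fragments, within 1500 bp of a start, from distal ones. Which of these apply to these lists is not stated, and versions are not given in the sources used here. Fragments were 66 to 599 bp long.

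Libraries were grouped by stage, YFP gate and replicate from their titles. The 9 genes, the 25 further genes, the regions named and the tests were chosen with earlier results of these data known. Regions named were, per gene, the one with most positive fragments, every region with at least 20 fragments and every region positive in both replicates at a stage. Fragments sharing at least 1 bp were merged into regions. Places came from RefSeq GRCm38 transcripts with curated accessions. Positive and negative fragments were compared by the Cochran-Mantel-Haenszel statistic, corrected for continuity, over the 10 sorts. Stages were compared by limma 3.58.1 in R 4.3.3 with 10 groups of 2. Both were run on simulated independent counts with known answers. These simulations held no PCR copies and no offset between replicates, so they do not show how the tests behave with either. The threshold was an adjusted p of 0.05 by the Benjamini-Hochberg method. Other steps used Python 3.11.15.

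The methods describe 1 transfection of pooled libraries per experiment, and replicate numbers are shared by the 5 stages. Deviations of same-numbered sorts correlated at 0.21 to 0.56 over all 45 pairs of groups, so the numbers were taken to pair the sorts. The limma values given are without the replicate as a block unless stated, so their error includes the offset between replicates. The limma p-values measure the spread between the 2 replicates, estimated over the 10 groups together and drawn toward that of all loci. The Cochran-Mantel-Haenszel p-values take fragments as independent and measure counting error, not the spread between replicates. Alternatives changed the strata, the positive gates, near-identical fragments (within 5 bp), the minimum number (10 or 40), the pseudocount (0.5 or 2), the locus width (10 or 50 kb) and the sorts used.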

Additional observations from a re-analysis of the deposited data

How the results depend on the processing

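No locus or region of the 9 genes passed the threshold under any alternative, over 261 values of positive against negative fragments (lowest adjusted p 0.43) and 256 values of HP against ES (lowest adjusted p 0.52). With the replicate as a block in limma, 0 loci were called in all 4 comparisons of stages, and 352, 898, 440 and 73 loci had an unadjusted p under 0.05. With no replicate block in the Cochran-Mantel-Haenszel test, 23 regions and 8 loci were called, in place of 10 and 7, and observed over expected was 1.01 at Ptprc and 1.00 at Laptm5, both above 1. The calls over the whole screen depended on the setting. Positive gates of Medium and High called 3 regions and 3 loci, collapsing near-identical fragments called 0 and 0 (99 and 195 at an unadjusted p under 0.05), and a minimum of 10 fragments called 17 and 11. Among loci alone, a minimum of 40 called 2, loci of 50 kb on either side called 15 and leaving out fragments found as both positive and negative called 14. The cause was not tested.

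Members close to 1 changed side. With Medium and High gates Ptprc was at 1.02 and Cd34 at 0.99. Without fragments of both kinds the Itga2b region in the gene was at 0.98, the Laptm5 region at 1.03, Itgal at 0.99 and Laptm5 at 1.01. With 50 kb Ptprc was at 1.01, Cd34 at 0.98 and Cd44 at 1.01, and the HP minus ES difference was -0.13 at Ptprc, -0.57 at Itgal and -0.39 at Laptm5. In negative fragments Itga2b was at 0.32 with a pseudocount of 0.5 and at 0.13 with near-identical fragments collapsed.

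Leaving out 1 sort or replicate at a time gave 5 to 17 called regions, with 5 without HE1 of replicate 2 or without replicate 2, 6 without HB of replicate 2 and 17 without HP of replicate 2, and 2 to 11 called loci, with 2 without replicate 2, 3 without any single sort of replicate 2 and 11 without HE1 of replicate 1. It gave 0 to 0 loci in each comparison of stages. Observed over expected ranged from 0.92 to 1.02 and from 0.99 to 1.03 at the Itga2b regions outside and inside the gene, from 0.95 to 1.13 at the Csf1r region, and from 1.00 to 1.07 at Cd34, 0.97 to 1.11 at Csf1r and 0.99 to 1.06 at Itgal as loci. HP minus ES in positive fragments ranged from -2.69 to 0.36 at Itga2b, -0.21 to 1.74 at Cd44, -1.52 to 0.29 at Coro1a, -0.22 to 0.37 at Itgal, -0.76 to 1.34 at Laptm5 and -0.54 to 1.38 at Csf1r, and in negative fragments from -2.07 to 2.05 at Itga2b. Few fragments in replicate 2, 30 positive and 21 negative over the 9 loci, limit every comparison between stages.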
